A study of Mus musculus with 18 samples.

Results

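The transcripts described here encode 5 subunits of the SWI/SNF complex: the core subunits Smarcb1, Smarcc1 and Smarcc2, and the ARID subunits Arid1a and Arid1b. They were taken by gene symbol from an array of Polycomb and Trithorax group genes, and make up 5 of its 64 genes and 10 of its 117 gene spots, with 2 spots for each gene. All 5 symbols matched a RefSeq gene table for mouse, and 4 of the 5 accessions given for the probes did so. The accession given for Arid1b did not match, and its probe is named here by its symbol alone.

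SWI/SNF, also called BAF in mammals, is a Trithorax group complex that uses ATP to slide and evict nucleosomes, and so opens DNA to transcription factors. Smarcb1 and the paralogous scaffold proteins Smarcc1 and Smarcc2 form part of the core on which the complex is built, with Smarca2 or Smarca4 as the motor. Arid1a and Arid1b are mutually exclusive large subunits that define the canonical form of the complex, and both bind DNA. The complex is known for counteracting Polycomb silencing and for roles in the differentiation of mesenchymal cells.

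The samples are cultures of mesenchymal stem cells from the inguinal fat pad of mice of FVB, an inbred strain, with no genetic change or drug named in the labels. The mice were 1, 3, 6, 12 or 24 months old, and these ages have 4, 3, 3, 3 and 2 samples. All cells were grown in high-glucose medium and used within the fifth passage, so each value describes cultured cells and not fat tissue. No label states that samples of an age came from separate animals, and the p-values therefore measure the spread between these samples, which may be technical. The 15 samples were hybridised to 18 arrays, since 3 samples have a second array. Each sample is named here by its age and the number in its label, and the arrays of a sample were averaged. The median gene signal of an array ran from 8286 to 33357 pixel units, and 23 to 39 of the 64 genes were called present on an array. Precision is limited by how few arrays each age has.

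The 18 arrays form 2 sets by their names and their order in the deposited sheets, and no label gives a date for either. The first set has 12 arrays of 11 samples, and the second has 6 arrays of 6 samples. The 3-month and 6-month samples lie in the first set, while the pair of 24-month samples lies in the second. Of the 1-month samples, numbers 1 and 8 have an array in each set, number 5 lies in the first set and number 2 in the second. Sample 3 at 12 months is in the second set and samples 2 and 7 in the first. A comparison of 3 or 6 months with 24 months therefore cannot be told apart from the set. The comparison of 24 months with 1 month can also be made within the second set. Levels of a gene are normalised log2 signals. A level is given as mean ± SD over samples and a change as a log2 difference with its standard error (SE) from limma. Levels of different genes come from different probes and are not compared.

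The cells could be checked against few markers. Of the 31 markers listed for mesenchymal, adipocyte, blood, endothelial, epithelial and dividing cells, 6 are on the array, and none of these is a mesenchymal or adipocyte marker. The leukocyte genes Itgb2, Nckap1l and Ctsg and the endothelial gene Darc were detected in 0 of 15 samples, and the keratin gene Krt17 in 1. Hmgb2, which is abundant in dividing cells, was detected in 6 of 15 samples. Its level was 13.55 ± 1.38 at 1 month (n = 4) and 11.94 ± 0.82 at 24 months (n = 2), and its difference of -1.61 (SE 1.08) had an adjusted p of 0.451 in limma. In such samples, fewer cells of a type and less RNA per cell cannot be told apart.

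The subunits differed in how steadily they were detected. A spot was called present in 36 of 36 cases for Smarcb1 and 36 of 36 for Smarcc2, against 27 of 36 for Arid1a, 3 of 36 for Smarcc1 and 2 of 36 for Arid1b. Detection in a sample required a present call for 50% or more of the spots of a gene there. By that rule Smarcb1 and Smarcc2 were detected in 15 of 15 samples, Arid1a in 11, Smarcc1 in 2 and Arid1b in 1. The 38 genes detected in at least 2 samples were tested, and 4 of the 5 subunits were among them. Smarcc1 passed that filter through its 24-month samples alone, and Arid1b was not tested in the main fits. An alternative that tested all 64 genes took Arid1b in and did not call it.

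No subunit passed a test across ages. The limma F-test over the 5 ages called 0 of 38 genes (0.0%) at an adjusted p under 0.05, while the unadjusted p was under 0.05 for 13. The adjusted p was 0.137 for Smarcc2, 0.239 for Smarcb1 and 0.533 for Arid1a. With array weights, which let arrays that fit less well count for less, the F-test called 9 of 38 genes, among them Smarcc2, at an adjusted p of 0.0493. That fit held no term for the set of arrays. With the set as a term the F-test gave Smarcc2 an adjusted p of 0.568. In the first set alone, which has no 24-month sample, it gave 0.812. The weighted F-test also called Smarcc1, at 0.0493. A gene that entered through the age at which it is high is favoured in a test among ages, and nothing is read from that call. No gene was called for its slope over log2 of age (0 of 38, 0.0%), and 4 had a slope with an unadjusted p under 0.05. Against 1 month, limma called 0 of 38 genes (0.0%) at 3, at 12 and at 24 months. At 6 months it called 1 of 38 (2.63%), the phosphatase-like gene Sbf1, which is no SWI/SNF subunit and was chosen for mention after its value was seen. The unadjusted p was under 0.05 for 5 genes at 3 months, 2 at 12 months and 6 at 24 months. The comparisons with 1 month share their 1-month samples.

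**Figure D1:**
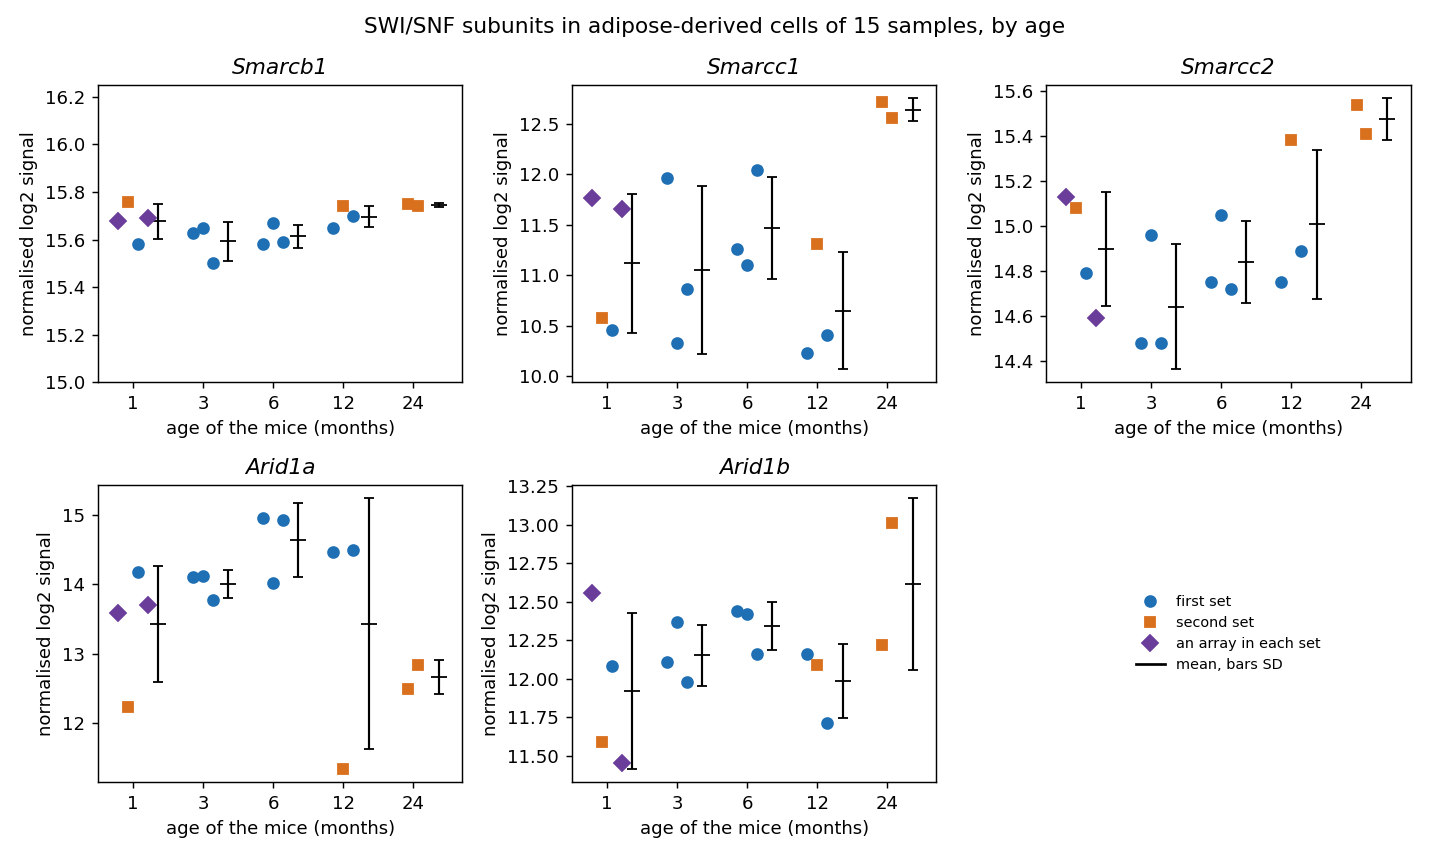
Normalised log2 signal of the 5 subunits (y axis, a separate scale for each gene) in 15 samples by age of the mice in months (x axis). Points are samples, marked by the set of their arrays, and black bars are the mean and SD of an age. Smarcb1 stays between 15.50 and 15.76. Smarcc1 and Smarcc2 are highest in the 2 samples at 24 months, and the 4 lowest Arid1a samples are those with arrays in the second set alone.

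Smarcb1, the small core subunit whose loss defines rhabdoid tumours, gave the steadiest signal of the 5. Its level was 15.68, 15.76, 15.58 and 15.69 in 1-month samples 1, 2, 5 and 8. It was 15.63, 15.65 and 15.50 in 3-month samples 2, 5 and 8, and 15.58, 15.67 and 15.59 in 6-month samples 6, 7 and 8. It was 15.65, 15.74 and 15.70 in 12-month samples 2, 3 and 7, and 15.75 and 15.74 in 24-month samples 1 and 2. The lowest value was at 3 months and the highest in a 1-month sample. The 24-month values lay inside the 1-month range and above all 3-month and 6-month values, which were measured in the other set of arrays. The age means ran from 15.59 ± 0.08 (SD, n = 3) at 3 months to 15.74 ± 0.01 (n = 2) at 24 months, and every pair of neighbouring ages in that order overlapped.

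The whole range of Smarcb1 over 15 samples was 0.25 on the log2 scale, and 30 of the 38 tested genes ranged more widely, with a median range of 1.55. At 24 months it was 0.06 (SE 0.05) above 1 month, with an adjusted p of 0.57 in limma. Its slope was 0.01 (SE 0.01) for each doubling of age, with an adjusted p of 0.645. Its spots lay close to the top of the scale, at 50124 to 60834 pixel units, where the highest signal of any spot was 63681. Of its 36 spots, 9 carry the authors' bleeding (saturation) mark. Near the top of the scale a difference in transcript gives a smaller difference in signal, so the narrow spread describes the signal alone.

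Smarcc2, a scaffold protein also known as BAF170, was detected in every sample and, as normalised here, stood highest at 24 months. Its level was 15.13, 15.08, 14.79 and 14.59 in 1-month samples 1, 2, 5 and 8. It was 14.48, 14.96 and 14.48 in 3-month samples 2, 5 and 8, and 14.75, 15.05 and 14.72 in 6-month samples 6, 7 and 8. It was 14.75, 15.38 and 14.89 in 12-month samples 2, 3 and 7, and 15.54 and 15.41 in 24-month samples 1 and 2. After quantile normalisation both 24-month samples lay above every other sample, and the other ages overlapped one another. Sample 3 at 12 months, the one sample of that age in the second set, came next below them. The ratios in the authors' deposited table did not separate the ages in this way. They were 0.675 and 0.705 in 24-month samples 1 and 2, and 0.698, 0.6, 0.72 and 0.69 in 1-month samples 1, 2, 5 and 8.

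By age, Smarcc2 averaged 15.48 ± 0.09 (SD, n = 2) at 24 months and 15.01 ± 0.33 (n = 3) at 12 months. Below these stood the 1-month mean, 14.90 ± 0.25 (n = 4), the 6-month mean, 14.84 ± 0.18 (n = 3), and the 3-month mean, 14.64 ± 0.28 (n = 3). The step from 12 to 24 months, 0.47, exceeded the larger SD of the pair, and no other step between neighbours in this order did. That step also mixes the sets, since 12-month samples 2 and 7 lie in the first and both 24-month samples in the second. Sample 3 at 12 months, in the second set, read 15.38. The level at 24 months was 0.58 (SE 0.21) above 1 month, with an unadjusted p of 0.0213 and an adjusted p of 0.202 in limma. As normalised, it lay above every 1-month sample in 2 of 2 samples, as did 7 of the 38 tested genes (18.4%). The slope was 0.10 (SE 0.05) for each doubling of age, with an adjusted p of 0.425.

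The level of Smarcc2 also moved with the set of arrays. In a fit over the 18 arrays with age and set as terms and the sample as a random block, limma called 9 of 38 genes (23.7%) between the sets. Arrays of the second set read 0.53 (SE 0.14) higher for Smarcc2, with an adjusted p of 0.0133. That call was lost with the local background in the correction (0.00, adjusted p 0.976) and with the second printed spot alone (0.41, adjusted p 0.0598). Once the set was a term, 24 months exceeded 1 month by 0.33, with an adjusted p of 0.532. Within the second set alone it was 0.34 (SE 0.16), with an adjusted p of 0.796. Before normalisation the signal of Smarcc2 changed little between the arrays of one sample: 44336 and 45152 pixel units for 1-month sample 1, and 44251 and 43991 for 1-month sample 8.

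The size of the difference moved with the scaling. Quantile normalisation left the median of the 38 genes at -0.00 between 24 months and 1 month, while scaling on the housekeeping genes moved it to -0.26 and median centring to 0.71. On the ratios in the authors' deposited table the median was -0.50 over 32 genes. The housekeeping spots averaged 62211 to 63199 pixel units on an array, near the top of the scale. Smarcc2 itself differed by 0.08 with housekeeping scaling, by 1.04 with median centring and by 0.03 on the authors' ratios. Relative to the median of all genes it was 0.58 higher as reported, 0.33 higher with housekeeping scaling or median centring, and 0.53 higher on the ratios. With the deposited local background in the correction it differed by 0.12, which is 0.01 relative to that median. The difference between the sets in Smarcc2 turned negative with housekeeping scaling, at -0.15 (adjusted p 0.569), and on the ratios, at -0.17 (adjusted p 0.376).

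Smarcc1, also known as BAF155, is the paralogue of Smarcc2 and was near or under the detection limit in nearly all samples. Its level was 11.77, 10.58, 10.46 and 11.66 in 1-month samples 1, 2, 5 and 8. It was 11.96, 10.33 and 10.86 in 3-month samples 2, 5 and 8, and 11.26, 11.10 and 12.04 in 6-month samples 6, 7 and 8. It was 10.23, 11.31 and 10.41 in 12-month samples 2, 3 and 7, and 12.72 and 12.56 in 24-month samples 1 and 2. As normalised here, the 24-month samples were the highest of the 15, and the ranges of the other ages overlapped. Of the 38 tested genes, 7 (18.4%), Smarcc1 among them, lay above every 1-month sample in both 24-month samples. On the authors' ratios this order was lost. They were 0.205 and 0.135 in 24-month samples 1 and 2, and 0.165, 0.12, 0.16 and 0.195 in 1-month samples 1, 2, 5 and 8. The 24-month samples were also the 2 in which the gene counted as detected, each through 1 of its 2 spots. The levels at the other ages are therefore signals that the authors' calls do not set apart from background.

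Smarcc1 averaged 12.64 ± 0.11 (SD, n = 2) at 24 months and 11.47 ± 0.50 (n = 3) at 6 months. The 1-month mean was 11.11 ± 0.69 (n = 4), the 3-month mean 11.05 ± 0.83 (n = 3) and the 12-month mean 10.65 ± 0.58 (n = 3). The step from 6 to 24 months was 1.17 and exceeded the larger SD, while the other steps did not. It joins ages measured in different sets of arrays and cannot be told apart from the set. At 6 months 0 of 6 spots were called present, so nothing is read from that step. As a description, the measured signal at 24 months was 1.52 above that at 1 month, where 1 of 12 spots was called present. No p is given, since the gene was tested only through its 24-month samples, and the measured difference stands for no fold of the transcript. It was 1.13 in the second set alone, and 1.04 in the fit that holds the set as a term. It was 0.72 with housekeeping scaling, 1.68 with median centring, 0.63 without background correction and 0.10 on the authors' ratios. The cause of this spread in size was not tested.

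The 2 spots of Smarcc1 did not give the same reading. All 3 of its present calls are at the second printed spot and on arrays of the second set. The calls do not follow the signal across arrays. In the first set the second spot read 19117 pixel units for 1-month sample 8, 12568 for 3-month sample 2 and 11840 for 6-month sample 8. It was called absent on each of these arrays. On the second array of 1-month sample 1 the first spot read 5835 and the second 18096 pixel units. On the array of 24-month sample 1 they read 5796 and 19687, and on that of 24-month sample 2 they read 5803 and 11205. The first spot was thus at nearly the same signal on these arrays, and it was called absent on all 3. The second spot read 10143 for 1-month sample 2, 8931 for 1-month sample 8 and 5071 for 12-month sample 3 on the remaining arrays of that set, and was called absent on each.

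On the log2 scale the second spot of Smarcc1 exceeded the first by a median of 1.02 over the 6 arrays of the second set, and was the brighter on 5 of them. Over the 12 arrays of the first set the median was -0.16, and it was the brighter on 4. Other genes also had unequal spots, and the highest excess of the second spot on an array of the second set ran from 1.40 to 2.38. Of the 51 genes with 2 spots, 1 had a higher second-minus-first value than Smarcc1 on the second array of 1-month sample 1, 1 on that of 1-month sample 2 and 6 on that of 1-month sample 8. There were 2 such genes on the array of 24-month sample 1, 3 on that of 24-month sample 2 and 34 on that of 12-month sample 3. Read from the second spot alone, the measured signal of Smarcc1 was 2.08 higher at 24 months than at 1 month. Read from the first spot alone the difference was 0.97, which rests on a low value in 1-month sample 2. The normalised first spot was 7.72 there and 10.76 to 11.83 on the other 1-month arrays, against 11.09 and 11.36 at 24 months. Between the sets, the second spot differed by 1.98 and the first spot by -0.77, second set minus first.

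**Figure D2:**
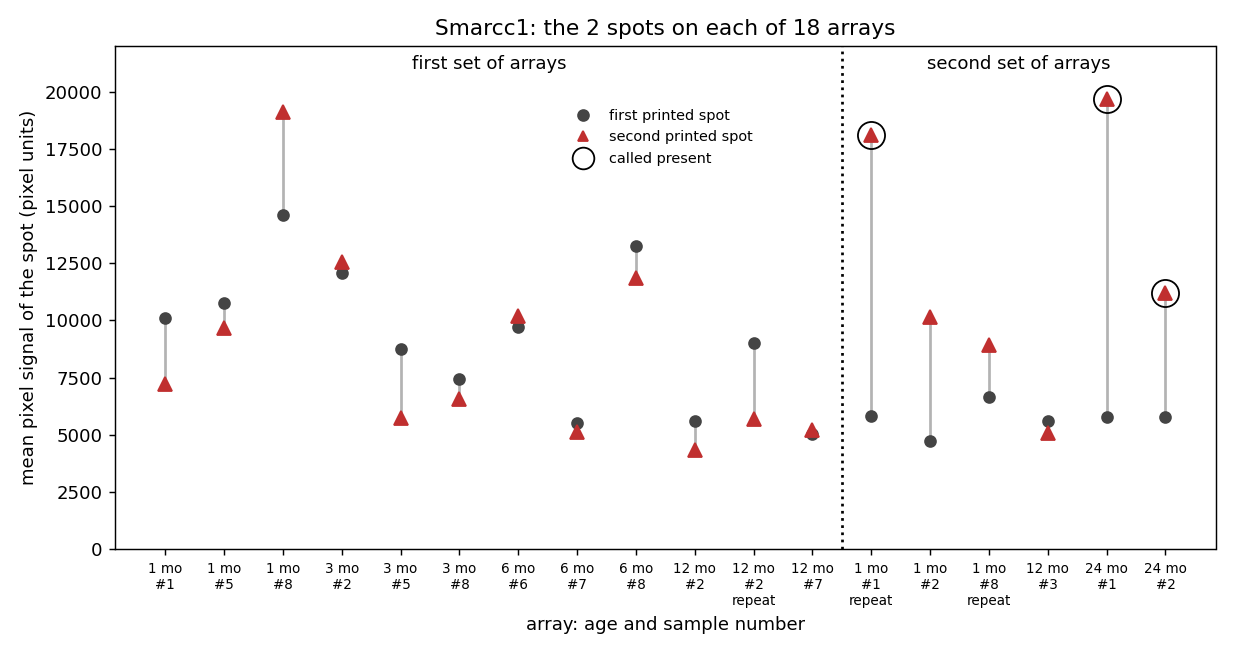
Mean pixel signal of the 2 spots of Smarcc1 (y axis, pixel units) on each of 18 arrays (x axis, by age and sample number, with the second array of a sample marked as a repeat). Circles are the first printed spot, triangles the second, and open rings mark spots called present. In the second set the second spot exceeds the first on 5 of 6 arrays, with present calls at 1 month and at 24 months.

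The paralogues Smarcc1 and Smarcc2 were compared by their change with age, as the log2 difference Smarcc1 minus Smarcc2 within a sample. The difference was -3.37, -4.50, -4.33 and -2.94 in 1-month samples 1, 2, 5 and 8, and -2.82 and -2.85 in 24-month samples 1 and 2. It was -2.52, -4.63 and -3.62 at 3 months, -3.49, -3.95 and -2.68 at 6 months, and -4.52, -4.07 and -4.48 at 12 months. The 24-month values lay above all 1-month values, and inside the range of the 3-month and 6-month ones. These differences have no meaning as levels, because they come from unlike probes.

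Between 1 and 24 months the measured difference moved by 0.95 (SE 0.59), with Smarcc1 detected in 0 of 4 samples at 1 month. The move was 0.13 without background correction and 0.07 on the authors' ratios. No p is given for it, since Smarcc1 counted as detected at 24 months alone. The smallest exact permutation p that 4 samples against 2 allow is 0.133, and against 3 samples it is 0.0571, so the exact test could pass the threshold at no age. The other ages differed from 1 month by 0.19 (3 months), 0.41 (6 months) and -0.57 (12 months), and their exact permutation p-values were 0.8, 0.514 and 0.343. Over all 15 samples the slope was 0.06 (SE 0.12) for each doubling of age, with a two-sided permutation p of 0.63, also 0.63 adjusted over the 2 pairs. That slope takes in the same 24-month samples, and its permutation shuffled ages over both sets of arrays. With Smarcc1 mostly under its detection limit, it cannot decide whether the 2 paralogues change unequally with age. The slope was -0.18 within the first set and 0.12 within the second.

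Arid1a, the ARID subunit that is often mutated in cancers, varied most of the 5. Its level was 13.59, 12.23, 14.18 and 13.70 in 1-month samples 1, 2, 5 and 8. It was 14.11, 14.12 and 13.77 in 3-month samples 2, 5 and 8, and 14.96, 14.02 and 14.92 in 6-month samples 6, 7 and 8. It was 14.46, 11.34 and 14.49 in 12-month samples 2, 3 and 7, and 12.49 and 12.84 in 24-month samples 1 and 2. The 4 lowest values belong to 1-month sample 2, 12-month sample 3 and both 24-month samples. These are the 4 samples measured in the second set alone, and the gene was not detected in any of them while it was in the other 11.

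Arid1a averaged 14.63 ± 0.53 (SD, n = 3) at 6 months, with 3 months next, 13.43 ± 0.84 (n = 4) at 1 month, 13.43 ± 1.81 (n = 3) at 12 months and 12.67 ± 0.24 (n = 2) at 24 months. The step from 3 to 6 months, 0.63, exceeded the larger SD although the ranges overlapped, and no other step did. It was detected in 3 of 4 samples at 1 month, in all 3 at 3 months and at 6 months, in 2 of 3 at 12 months and in 0 of 2 at 24 months. At 24 months the measured difference from 1 month was -0.76 (SE 0.81), with an adjusted p of 0.818 in limma. The lowest signals called present on the 24-month arrays put the bound there at 13.47, above the 1-month mean of 13.43, so no least fold can be given. The range of Arid1a over the samples was 3.62, and 2 of the 38 tested genes ranged more widely.

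Detection of Arid1a followed the set of arrays. In the first set 24 of 24 spots were called present, on 12 of 12 arrays, and the median signal was 33162 pixel units. In the second set 3 of 12 spots were, on 2 of 6 arrays, and the median was 8073. The level was lower in the second set by -1.96 (SE 0.34), with an adjusted p of 0.0027 in limma. It was lower there under each of the other 7 settings, which were chosen after seeing the data, with values from -2.79 to -1.25 and adjusted p-values from 0.000506 to 0.0227. Both printed spots gave -1.94.

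The samples hybridised in both sets also read lower for Arid1a in the second set. Arid1a read 31095 pixel units on the first array of 1-month sample 1 and 9905 on its array in the second set, which is -1.32 on the normalised log2 scale. It read 42741 and 15794 for 1-month sample 8, or -0.92. The third sample with a pair of arrays, 12-month sample 2, has both in the first set, and there the second array was the brighter, at 42559 against 21399 pixel units, or 1.01. A gap of similar size thus also arose within a set, and the cause of these gaps was not tested. In these pairs 2, 8 and 6 of the 38 tested genes had a larger gap.

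**Figure D3:**
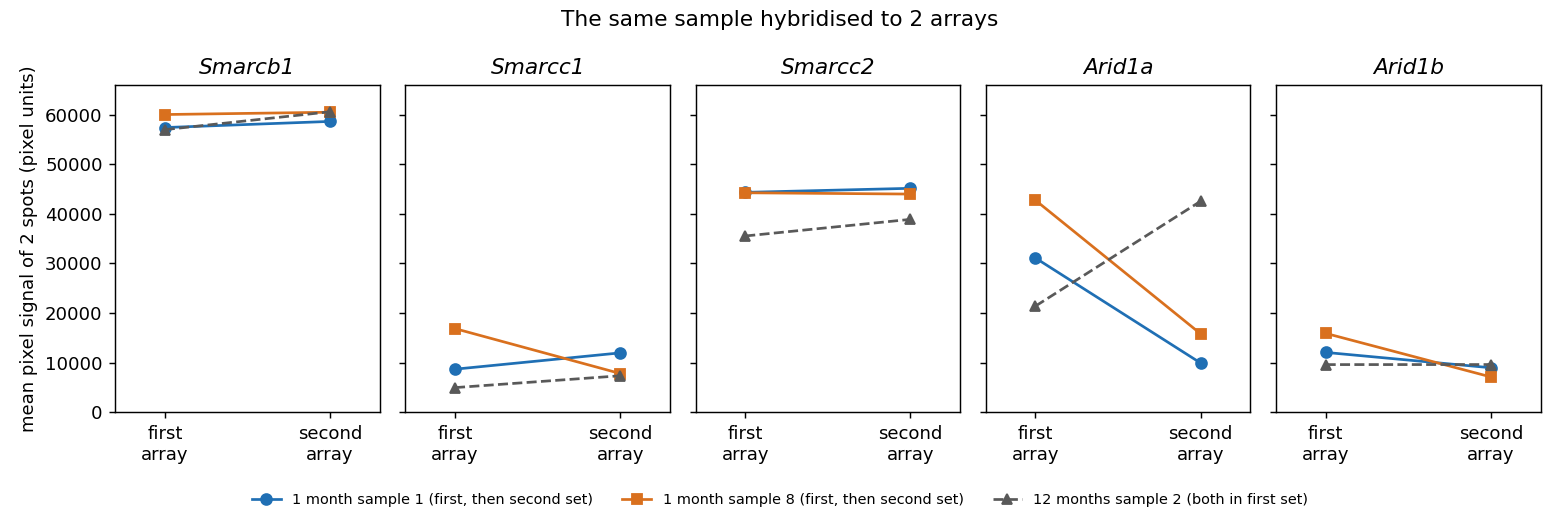
Mean pixel signal over the 2 spots of each subunit (y axis, pixel units) on the first and second array (x axis) of the 3 samples hybridised to a pair of arrays. Solid lines join an array of the first set to one of the second, and the dashed line joins arrays of the first set. Arid1a drops from 31095 to 9905 and from 42741 to 15794 between sets, while Smarcb1 and Smarcc2 stay nearly level.

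Within a set, Arid1a showed no called change with age. In the first set, 6 months was 0.44 (SE 0.24) above 1 month with an adjusted p of 0.334, and 3 months differed by -0.20 (SE 0.24) and 12 months by 0.28 (SE 0.27). In the second set, 24 months differed from 1 month by -0.14 (SE 0.37), with an adjusted p of 0.997. Sample 3, the only 12-month sample of that set, read -1.46 against its 1-month samples, with both spots called absent, and this value of 1 sample is given with no test. With the set as a term, the 24-month difference changed sign, to 0.15 (adjusted p 0.987). The slope over log2 of age was -0.08 (SE 0.17) over all samples, 0.12 (SE 0.08) in the first set and -0.10 (SE 0.13) in the second.

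Arid1b, the alternative ARID subunit, was under the detection limit in 14 of 15 samples. Its level was 12.56, 11.59, 12.08 and 11.45 in 1-month samples 1, 2, 5 and 8. It was 12.11, 12.37 and 11.98 in 3-month samples 2, 5 and 8, and 12.44, 12.42 and 12.16 in 6-month samples 6, 7 and 8. It was 12.16, 12.09 and 11.71 in 12-month samples 2, 3 and 7, and 12.22 and 13.01 in 24-month samples 1 and 2. The ranges overlapped at every step of the order of ages, which ran from 12.62 ± 0.56 (SD, n = 2) at 24 months to 11.92 ± 0.51 (n = 4) at 1 month, and no step exceeded the larger SD. Its 2 present calls were on arrays of 3-month sample 5 and 12-month sample 2, both in the first set. No statement on its change with age can rest on these signals alone.

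The difference Arid1a minus Arid1b was 1.03, 0.64, 2.1 and 2.25 in 1-month samples 1, 2, 5 and 8, and 0.27 and -0.17 in 24-month samples 1 and 2. The 3-month values were 2.00, 1.75 and 1.78, the 6-month values 2.52, 1.60 and 2.76, and the 12-month values 2.30, -0.74 and 2.78. The lowest 4 values are again those of the samples measured in the second set alone. The 24-month values lay below every 1-month value, and a 12-month value lay below them.

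The 24-month mean minus the 1-month mean of this difference was -1.46 (SE 0.84). Arid1b was detected in no sample of either age and Arid1a in none at 24 months, so it includes signals not set apart from background and no change in the transcripts is read from it. The exact two-sided permutation p was 0.133, the smallest possible. The change was 0.34 (3 months), 0.79 (6 months) and -0.06 (12 months), and the exact permutation p-values were 0.571, 0.229 and 1.0. The slope over 15 samples was -0.18 (SE 0.17) for each doubling of age, with a two-sided permutation p of 0.319 and 0.63 adjusted over the 2 pairs. It was 0.10 within the first set and -0.24 within the second. With the set as a term the change turned negative at 3 months, to -0.65, and at 6 months, to -0.20, and the 24-month change was -0.55. An unequal change of the ARID paralogues with age was not detectable by the permutation test, which shuffled ages over both sets of arrays. The part of the set in these changes was not tested beyond these values.

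**Figure D4:**
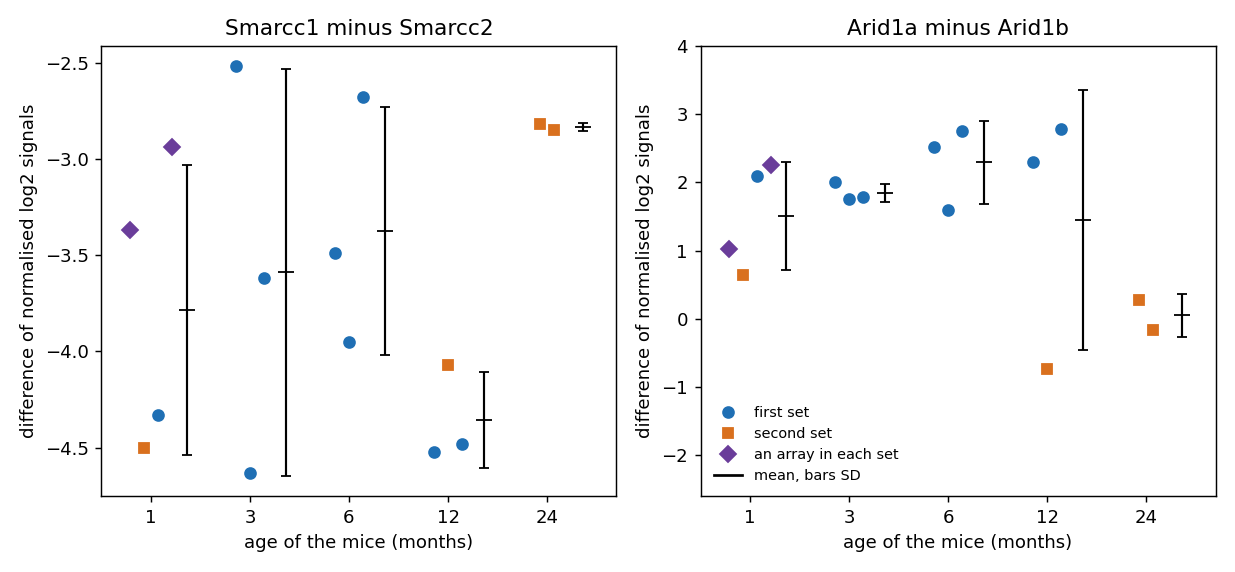
Log2 difference between the paralogues within a sample (y axis), Smarcc1 minus Smarcc2 and Arid1a minus Arid1b, by age of the mice in months (x axis). Points are samples, marked by the set of their arrays, and black bars are the mean and SD. At 24 months the first difference lies above all 1-month values and the second below them, and both 24-month samples are in the second set.

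The tested subunits differed in direction at 24 months. Of the 4, 3 were above 1 month and 1 was below, with a median of 0.32, against 19 of 38 genes above and a median of -0.00 over all tested genes, a balance that quantile normalisation sets. The 3 include Smarcc1, which was tested through its 24-month samples, so nothing is read from the count. Of all genes, 7 of 38 were above with housekeeping scaling, 28 of 38 with median centring and 3 of 32 on the authors' ratios. With housekeeping scaling and on the authors' ratios Smarcb1 turned negative, at -0.01 and -0.02.

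As a description across the 15 samples, which share arrays and sets, the level of Smarcb1 ran most like that of Eed, a Polycomb repressive complex 2 subunit, with a Pearson r of 0.91, and next like Smarcc2 with 0.76. For Smarcc2 the most alike were Smarcb1 at 0.76 and Eed at 0.70. Arid1a ran most like Phc2, a Polycomb repressive complex 1 subunit, at 0.91, and the deacetylase gene Sirt1 at 0.74. For Smarcc1 the closest were the housekeeping genes B2m at 0.71 and Ppia at 0.56. Among the subunits themselves, Arid1a ran against Smarcc2, at -0.70, and against Smarcb1, at -0.69; as normalised here, Arid1a was lower and the other pair higher in the second set, which housekeeping scaling turned for Smarcc2 and Smarcb1. The correlation was 0.37 for Smarcc1 with Smarcc2 and 0.04 for Arid1a with Arid1b. Smarcc1 was detected in 2 of 15 samples and Arid1b in 1, while the spots of Smarcb1 and the housekeeping genes lay near the top of the scale. Correlations with these genes therefore join signals near background or near saturation, and no shared expression is read from them.

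Of the 35 other SWI/SNF and remodelling genes in the list, 4 are on the array. Smarca2 and Smarca4 encode the alternative ATPase motors of SWI/SNF, Smarca1 an ISWI motor and Bptf the large subunit of the NURF remodeller. Smarca2, Smarca4 and Bptf were tested, and 0 of 3 were called in either direction in any comparison of ages. Smarca2 was detected in 15 of 15 samples, at 15.48 ± 0.23 (SD, n = 4) at 1 month and 15.48 ± 0.11 (n = 2) at 24 months. It was lower in the second set, at -0.46 (adjusted p 0.00398). Smarca4 was at 14.17 ± 0.33 at 1 month and 14.31 ± 0.37 at 24 months, with a set difference of 0.15 (adjusted p 0.689). Bptf was at 14.02 ± 0.40 and 14.02 ± 0.04. Smarca1 was detected in 1 of 15 samples.

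Of the 18 Trithorax methyltransferases and partners listed, 7 are on the array, 4 were tested and 0 were called in either direction. Mll1, which methylates histone H3 lysine, was at 15.20 ± 0.19 at 1 month and 15.48 ± 0.02 at 24 months, a difference of 0.28 (SE 0.18, adjusted p 0.447). It was also higher in the second set, by 0.36 (adjusted p 0.032). Ash2l, a partner of these enzymes, differed by -0.73 (SE 0.32, adjusted p 0.285). Mll3 and Ash1l were also tested. They differed by 0.28 (SE 0.33, adjusted p 0.818 in limma) and by -0.04 (SE 0.06, adjusted p 0.88). Mll2, Wdr5 and Rbbp5 were detected in 1, 1 and 0 samples.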

How the data were processed

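Arrays were 1-colour: amplified, biotin-labelled RNA on a custom mouse oligonucleotide array, per the labels. The deposited raw sheet holds an intensity for each spot, summed over its pixels, and other sheets its area, present call and bleeding mark, per the file headers. A deposited ratio for 49 genes is, from a check against the raw values, the signal over the median of the authors' housekeeping spots (largest difference 0.00707). The scanner is not stated in the sources used here. The 5 arrays in the sheets that belong to other samples were not used.

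Intensity was divided by spot area, corrected with normexp (offset 50) and quantile normalised over gene spots in limma 3.58.1 (R 4.3.3), then averaged over spots and arrays. The local background column was not used in the main values, since over the gene spots of an array it follows spot intensity (rank correlation 0.77 to 0.93 over the 18 arrays), with an array median of 65.1 to 91.3% of it. Tests with a minimum of 2 detected samples per gene used lmFit and eBayes (10 residual degrees of freedom), with Benjamini-Hochberg adjustment over 38 genes at 0.05. Paralogue differences were tested by permutation in scipy 1.17.1, with 100000 resamples for slopes. Scripts were tested on simulated data. Genes named are the 5 subunits, 2 fixed lists, the markers, and the 2 tested genes most alike to each tested subunit. The members, lists and tests were chosen with earlier results of these data known. Alternatives changed the scaling, background, filter, arrays, block, weights, set, spot and samples used. Technical replicate arrays were assigned to samples by their names.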

Additional observations from a re-analysis of the deposited data

How the results depend on the processing

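No subunit passed the threshold in any comparison of ages under any alternative tried, except Smarcc1 and Smarcc2 in the F-test with array weights (adjusted p 0.0493 each), of which Smarcc1 was tested only through its 24-month samples. The printed spot was chosen as an alternative after seeing the data. With array weights limma gave the 24-month difference in Arid1a minus Arid1b, which includes undetected signals, an unadjusted p of 0.0336. At 24 months the adjusted p over the alternatives ran from 0.117 to 0.919 for Smarcc2. Counts of called genes changed as follows, against 0 in the F-test and 1 at 6 months. The F-test called 1 gene with median centring, 9 with array weights, 2 in the first set alone, 1 in the second set alone and 1 with the second printed spot, and 0 to 2 with one sample left out. At 6 months the count was 0 with housekeeping scaling, median centring, the authors' ratios, all genes tested, the replicate block, the set as a term, the brighter spot or the first spot, 2 without background correction or with the first array of each sample, 3 in the first set alone or with the second spot, and 0 to 2 with one sample left out. At 12 months it was 1 within each set, against 0, where the second set has 1 sample of that age, assumed to vary like the other groups. Slopes that changed sign, none of them called, were those of Smarcb1 (-0.00395 with housekeeping scaling, -0.00544 on the authors' ratios), Smarcc1 (-0.0026 and -0.0701 on the same, -0.111 in the first set), Smarcc2 (-0.0217 and -0.0267) and Arid1a (0.0489 with the replicate block, 0.119 in the first set, and -0.196 to 0.0121 with one sample left out, above 0 without 12-month sample 3). At 24 months Smarcb1 turned to -0.0105 with housekeeping scaling and -0.0178 on the ratios, and Arid1a to 0.147 with the set as a term. The slope of Smarcc1 minus Smarcc2 was -0.0435 on the ratios, -0.0294 without background correction, -0.175 in the first set and -0.00219 with the set as a term. That of Arid1a minus Arid1b was 0.0971 in the first set. Against 1 month, Smarcc1 minus Smarcc2 turned at 3 months to -0.0753 in the first set and -1.21 with the brighter or the second spot, and spanned -0.342 to 0.715 with one sample left out. It turned at 6 months to -0.00943 without background correction and -0.826 with the brighter or second spot, and at 12 months to 0.574 with the first spot. Arid1a minus Arid1b turned at 3 months to -0.653 with the set as a term or -0.338 in the first set, and at 6 months to -0.203 with the set as a term. At 12 months, where it was -0.0601, it turned to 0.395 with housekeeping scaling or median centring, 0.424 on the ratios, 0.0955 without background correction, 0.0761 with the local background, 1.43 with the replicate block, 0.749 with array weights, 0.357 in the first set and 0.14 with the second spot, and spanned -0.727 to 1.03 with one sample left out. The difference between the sets turned for Smarcb1 to -0.000421 with housekeeping scaling and -0.00826 on the ratios, for Smarcc1 to -0.247 and -0.254 and, with the first spot, -0.767, and for Smarcc2 to -0.145 and -0.166. The cause of these changes was not tested. Of 12 pairs of samples with one number, 6 had deviations correlated over 0.1 (lowest -0.42, highest 0.4). Pairs of unlike number were not compared, so these values cannot decide whether the sample numbers pair the ages. The replicate block groups samples by that number alone, and it called no subunit. Signal over background limits Smarcc1 and Arid1b, and saturation limits Smarcb1.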
